A study of Rattus norvegicus with 15 samples.

Results

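The genes described here are 38 cell cycle and proliferation genes, listed by symbol as 13 genes of S phase and 25 of mitosis, in bulk RNA sequencing of 15 rat mammary tumours. Symbols were looked up in a table of read counts for 17463 genes: 37 of the 38 had a row, and all 37 passed the filter on low counts that kept 11665 genes. The RNA level of CENPE, a kinetochore motor, was not analysed here, and its promoter was. The tumours came from Fischer rats in which mammary tumours were induced with N-nitroso-N-methylurea (NMU), a carcinogen that alkylates DNA, given as 2 intraperitoneal doses of 50 mg/kg. The 9 midkine libraries are tumours of rats that also received midkine, a secreted heparin-binding growth factor. Midkine was injected at 300 ug/kg, 3 times per week, over the 2 weeks ahead of each NMU dose. The 6 vehicle libraries are tumours of rats labelled as vehicle, whose vehicle is not named. Each library was made from a ground piece of tumour, so it holds RNA of every cell type in that piece, and the sources used here do not give the age of the rats or the size of each tumour at collection.

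The titles of vehicle 2-1 and 2-2, of midkine 3-1 and 3-2, and of midkine 4-1 to 4-3 share their first digit. Nothing in the labels states whether these are tumours of the same rat, so the p-values measure the spread between libraries only. Depth ran from 4925504 to 8486523 reads counted in genes (median 7252603). Levels below are CPM (reads scaled to a common library size) after scaling by trimmed mean of M-values (TMM), and they are not corrected for gene length, so levels are compared between libraries and not between genes.

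Dividing cells switch these genes on in waves. Before and during S phase, E2F transcription factors, once released from the retinoblastoma protein, drive genes that license and copy DNA: the MCM2 to MCM6 helicase subunits, the licensing factors CDC6 and CDT1, the sliding clamp PCNA, cyclin E (CCNE1 and CCNE2), and the nucleotide enzymes RRM2 and TYMS. Later, the MuvB complex with MYBL2 and FOXM1 drives the mitosis genes, which include the mitotic cyclins and CDK1, the kinases AURKA, AURKB, PLK1 and BUB1, the spindle motors KIF11, KIF20A and KIF2C, and CDC20 and UBE2C, which act in the destruction of cyclin B. In mammary tumours the protein of MKI67 is a routine stain for cycling cells. In bulk tissue, fewer cycling cells and less of these RNAs per cell cannot be told apart.

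Promoters of 27 of the 38 genes (8 of S phase, 19 of mitosis) were found in the RefSeq table of the assembly GRCr8, which holds 250 bases before and 50 after each annotated start. Upstream bases of MCM6 and MCM5 are shown for the S phase genes and of CDC20, CCNB1, PLK1 and CDK1 for the mitosis genes, to show the motif classes that were searched. MCM6, CDC20, CCNB1 and PLK1 were chosen by name, and MCM5 and CDK1 after the motif positions had been seen. CDC6 and E2F1 were to be shown as well and have no entry in the table. The 150 bases before the start are given 5′ to 3′ on the gene's strand. Capitals mark E2F motifs (TTTCCCGC, TTTGGCGC or TTTCGCGC), CCAAT boxes, and the cell cycle genes homology region (TTTGAA or TTCGAA), each on either strand.
MCM6: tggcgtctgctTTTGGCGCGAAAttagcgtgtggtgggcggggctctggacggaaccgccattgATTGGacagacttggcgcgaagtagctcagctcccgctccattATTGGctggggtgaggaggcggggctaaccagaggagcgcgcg
MCM5: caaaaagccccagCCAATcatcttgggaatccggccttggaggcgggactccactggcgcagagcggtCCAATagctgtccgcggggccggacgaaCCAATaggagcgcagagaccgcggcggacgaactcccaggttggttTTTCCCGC
CDC20: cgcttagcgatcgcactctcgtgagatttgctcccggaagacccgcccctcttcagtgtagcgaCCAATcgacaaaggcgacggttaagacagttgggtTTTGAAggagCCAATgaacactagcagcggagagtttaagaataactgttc
CCNB1: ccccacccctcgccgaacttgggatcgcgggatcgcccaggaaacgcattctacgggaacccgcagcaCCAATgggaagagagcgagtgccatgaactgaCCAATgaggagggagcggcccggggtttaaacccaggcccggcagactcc
PLK1: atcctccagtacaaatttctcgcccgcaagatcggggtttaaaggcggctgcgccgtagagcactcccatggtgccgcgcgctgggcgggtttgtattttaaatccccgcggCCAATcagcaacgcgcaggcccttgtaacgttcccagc
CDK1: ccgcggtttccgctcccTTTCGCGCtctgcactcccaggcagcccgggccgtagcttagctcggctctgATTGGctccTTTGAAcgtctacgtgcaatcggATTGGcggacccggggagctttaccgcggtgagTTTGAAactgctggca
They lie at chr13:42404353-42404502, minus strand, chr19:13488663-13488812, plus strand, chr5:137255800-137255949, minus strand, chr2:33655226-33655375, minus strand, chr1:186147508-186147657, plus strand and chr20:19265143-19265292, plus strand. In MCM6 the first capital run holds TTTGGCGC overlapping the reverse of TTTCGCGC. MCM5 ends in TTTCCCGC directly before its start and has 3 CCAAT boxes. CDC20 has TTTGAA between a pair of CCAAT boxes, CCNB1 has 2 CCAAT boxes and no TTTGAA, and the TTTGAA of PLK1 lies past its start and so outside the bases shown. CDK1 is the mitosis gene that carries an E2F motif, beside 2 TTTGAA and 2 CCAAT in the bases shown.

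Over the whole 300-base windows, an E2F motif was present in 6 of 8 S phase promoters (CDT1, MCM2, MCM3, MCM5, MCM6 and TYMS) and in 1 of 19 mitosis promoters (CDK1), against 1.83% of all 27457 promoters in the table. The homology region was present in 1 of 8 S phase promoters (MCM2) and in 11 of 19 mitosis promoters, among them MKI67, TOP2A, CCNB2, CDK1 and BIRC5, against 19.5% of all. At least 1 CCAAT was present in 4 of 8 and 13 of 19, against 37.7% of all. At least 2 were present in 3 of 8 and 9 of 19, against 11.45% of all. These are letter matches in a fixed window, and no binding was measured.

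Tumours were ranked by a member score, the mean log2 CPM (with a prior count of 2) over the 37 genes. Vehicle 3 stood highest at 6.09. It was followed by midkine 5 at 5.78, midkine 6 at 5.76, midkine 4-3 at 5.71 and vehicle 4 at 5.67. The middle of the order was midkine 2 at 5.22, midkine 4-1 at 5.08, vehicle 5 at 4.90, vehicle 2-2 at 4.81, midkine 3-1 at 4.69, midkine 4-2 at 4.63 and vehicle 2-1 at 4.54. The lowest were vehicle 6 at 4.09, midkine 1 at 3.51 and midkine 3-2 at 3.32. The range from highest to lowest was 2.77 log2 units, or 6.80-fold, and libraries of both groups stood in the upper, middle and lower parts of the order. The vehicle libraries averaged 5.02 ± 0.74 (SD, n = 6) and the midkine libraries 4.86 ± 0.92 (SD, n = 9). The difference of -0.16 log2 units is smaller than either SD, and the groups overlapped.

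**Figure D1:**
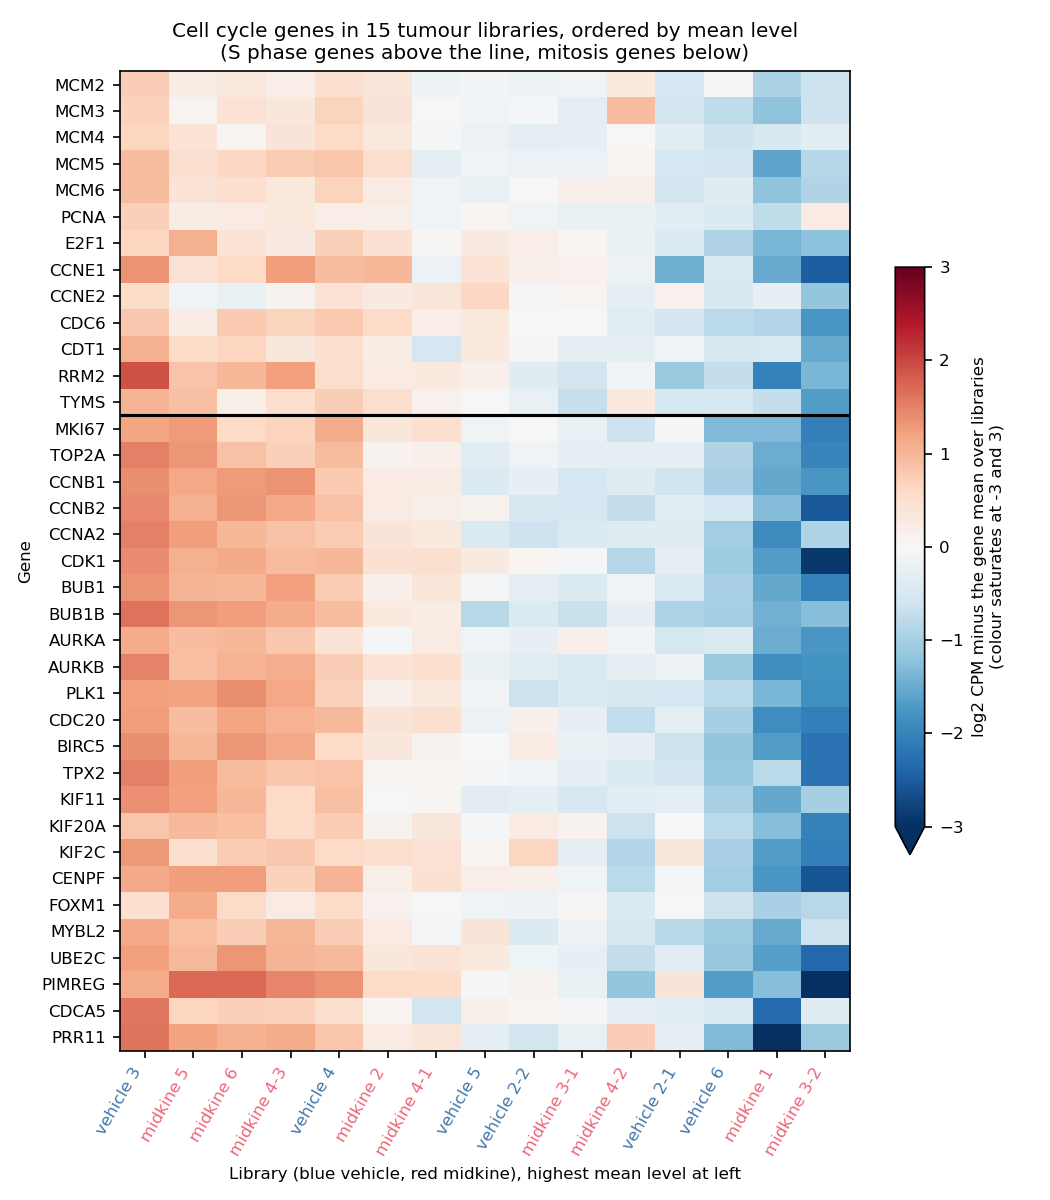
Level of each of 37 cell cycle genes (rows) in 15 tumour libraries (columns, highest member score at left), as log2 CPM minus the gene's mean over libraries, with red above and blue below the mean and S phase genes above the black line. Whole columns share a colour: vehicle 3, vehicle 4 and midkine 4-3 are above the mean for all 37 genes, and midkine 1 for 0.

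The genes moved together across tumours. In vehicle 3, vehicle 4 and midkine 4-3 all 37 genes lay above their own mean over libraries, and in midkine 2, midkine 5 and midkine 6 it was 36 of 37. In midkine 1 it was 0 of 37, in midkine 3-2 only PCNA and in vehicle 6 only MCM2. Vehicle 3 held the highest level of 27 genes, and 9 genes were highest in a midkine library: 5 in midkine 5 (E2F1, MKI67, KIF20A, FOXM1 and PIMREG), 3 in midkine 6 (PLK1, CENPF and UBE2C) and MCM3 in midkine 4-2. Midkine 3-2 held the lowest level of 21 genes and midkine 1 of 15. CCNE2 was highest in vehicle 5, and MCM4 was lowest in vehicle 6. As a description over 15 libraries that share depth and scaling, the Pearson correlation of a gene with the mean of the other members had a median of 0.893 for S phase genes and 0.960 for mitosis genes, from 0.664 for CCNE2 to 0.988 for BUB1.

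Libraries that share a title number differed in the same score. Vehicle 2-1 and 2-2 were 0.27 log2 units apart (1.20-fold), midkine 3-1 and 3-2 were 1.37 apart (2.59-fold), and the 3 libraries of midkine 4 spanned 1.08 (2.11-fold).

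The SD of log2 CPM over the 15 libraries had a median of 0.97 for the 37 genes, against 0.51 for all 11665 genes tested, and 15.9% of all genes had an SD above the members' median. It lay above the median of all genes for 33 of the 37. Mitosis genes spread further than S phase genes: the median SD was 1.00 for the 24 mitosis genes and 0.63 for the 13 S phase genes. The lowest SDs were those of PCNA (0.37), MCM4 (0.40), MCM2 (0.45) and CCNE2 (0.45). The highest were those of PIMREG (1.65), PRR11 (1.28), CDK1 (1.20) and CENPF (1.13), of which PIMREG and PRR11 rest on low counts. Among the 34 genes with more than 3 reads in every library, the highest library exceeded the lowest by 2.40-fold (MCM4) to 20.8-fold (CDK1), with a median of 5.66-fold for S phase and 10.3-fold for mitosis genes.

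Among the helicase subunits, MCM2 ran from 56.8 to 134 CPM in vehicle libraries (median 79.1) and from 41.4 to 103 in midkine libraries (median 92.5). It was highest in vehicle 3 and lowest in midkine 1. Its log2 fold change of midkine against vehicle was -0.14 (SE 0.23, edgeR adjusted p = 0.883). MCM3 ran from 44.8 to 123 CPM in vehicle libraries (median 71.8) and from 32.6 to 145 in midkine libraries (median 79.8). Its highest value was in midkine 4-2, a library that ranked 11 of 15 by member score, and its log2 fold change was 0.04 (SE 0.30, edgeR adjusted p = 0.982). MCM6 ran from 46.4 to 132 CPM (median 63.0) in vehicle and from 29.3 to 95.5 (median 75.4) in midkine libraries, with the groups overlapping and a log2 fold change of -0.15 (SE 0.29).

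The clamp PCNA, which holds DNA polymerase on its template, had the lowest SD of log2 CPM of the members, while MCM4 had the smallest fold range (2.40-fold, against 2.81-fold for PCNA). It ran from 108 to 235 CPM in vehicle libraries (median 141) and from 83.6 to 177 in midkine libraries (median 162), and its log2 fold change was -0.05 (SE 0.20, edgeR adjusted p = 0.960). In midkine 3-2, the library with the lowest member score, PCNA stood at 169.5 CPM, above its vehicle median. In the same library CDK1 stood at 8.06 CPM, its lowest value and below the lowest vehicle value of 29.5. PCNA is 1 of 13 members with like-named pseudogenes or paralogues in the gene table (22 copies in all, 3 of them of PCNA, 3 of AURKA and 5 of UBE2C), and the sources used here do not say how reads of such copies were counted.

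Of the regulators of S phase entry, CCNE2, a cyclin partner of CDK2, had the smallest p of all 37 members. It ran from 14.3 to 30.9 CPM in vehicle libraries (median 24.5) and from 8.91 to 26.1 in midkine libraries (median 18.9). Vehicle 5, vehicle 3 and vehicle 4 held its 3 highest values and midkine 3-2 its lowest, and the groups overlapped. The log2 fold change was -0.33 (SE 0.23, 95% interval -0.80 to 0.15, edgeR adjusted p = 0.678). CCNE1, the other cyclin E, ran from 3.48 to 25.8 CPM in vehicle and from 1.59 to 24.2 in midkine libraries. Its range over all 15 was 16.2-fold, and its log2 fold change was -0.17 (SE 0.51). E2F1 was highest in midkine 5 (37.8 CPM) and lowest in midkine 1 (6.67), and vehicle libraries ran from 9.43 to 29.5. CDT1, which loads the helicase with CDC6, ran from 14.4 to 42.2 CPM in vehicle and from 6.84 to 31.6 in midkine libraries (log2 fold change -0.32, SE 0.31).

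RRM2, the regulated subunit of ribonucleotide reductase, reached 90.8 CPM in vehicle 3, while the remaining vehicle libraries ran from 10.9 to 34.8. Midkine libraries ran from 5.71 (midkine 1) to 56.7 (midkine 4-3), with a median of 28.6. The groups overlapped, and the log2 fold change was -0.17 (SE 0.52). TYMS, thymidylate synthase, ran from 7.09 to 21.4 CPM in vehicle and from 3.05 to 19.8 in midkine libraries, with a log2 fold change of -0.10 (SE 0.37).

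MKI67 ran from 49.3 to 280 CPM in vehicle libraries (median 122) and from 29.5 to 302 in midkine libraries (median 156). Midkine 5 and vehicle 3 were highest, midkine 3-2 was lowest, and vehicle 6 and midkine 1 were level at 49.3. The means were 159 ± 93.3 (SD, n = 6) in vehicle and 143 ± 85.7 (SD, n = 9) in midkine libraries. The log2 fold change was -0.16 (SE 0.46, 95% interval -1.14 to 0.81, edgeR adjusted p = 0.943). TOP2A, which untangles sister chromatids, gave a like picture, with vehicle libraries from 55.8 to 300 CPM (median 93.4), midkine libraries from 26.2 to 264 (median 113) and a log2 fold change of -0.18 (SE 0.47).

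CDK1, the kinase that starts mitosis, had the widest range of the members with more than 3 reads everywhere. It ran from 29.5 to 167 CPM in vehicle libraries (median 69.2) and from 8.06 to 137 in midkine libraries (median 84.7). The 3 lowest libraries were midkine 3-2, midkine 1 and vehicle 6, and the log2 fold change was -0.17 (SE 0.52, edgeR adjusted p = 0.945). Its partner CCNB1 ran from 19.5 to 102 CPM in vehicle and from 11.4 to 98.2 in midkine libraries, with a log2 fold change of 0.13 (SE 0.50). CCNA2, which acts in both S phase and mitosis, ran from 12.97 to 78.1 and from 7.14 to 65.5 CPM (log2 fold change 0.04, SE 0.48).

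PLK1, a kinase of spindle assembly, had the largest positive log2 fold change of the members, 0.19 (SE 0.49, 95% interval -0.85 to 1.23, edgeR adjusted p = 0.934). Its vehicle libraries ran from 20.4 to 85.3 CPM (median 29.3) and its midkine libraries from 9.77 to 94.4 (median 40.1), with midkine 6 highest. KIF2C, a kinesin that takes microtubules apart at kinetochores, had the largest negative one, -0.39 (SE 0.43, 95% interval -1.31 to 0.52, edgeR adjusted p = 0.821). It ran from 17.8 to 87.4 CPM in vehicle libraries (median 48.6) and from 8.30 to 62.3 in midkine libraries (median 48.3), so the medians were nearly level.

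Both transcription factors of the mitotic wave had a range below the median of 10.3-fold over mitosis genes. FOXM1 ran from 13.4 to 31.2 CPM in vehicle and from 10.5 to 45.2 in midkine libraries, a 4.32-fold range with midkine 5 highest, and MYBL2 from 7.99 to 38.6 and from 5.95 to 35.2 CPM, a 6.48-fold range. Their log2 fold changes were 0.03 (SE 0.30) and -0.02 (SE 0.41). CDC20 ran from 29.7 to 142 CPM in vehicle and from 14.2 to 135 in midkine libraries, and UBE2C from 15.5 to 81.1 and from 6.47 to 86.1 CPM, with log2 fold changes of -0.08 (SE 0.49) and -0.06 (SE 0.50).

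Checkpoint genes and the aurora kinases were each highest in vehicle 3 and overlapped between the groups. BUB1, a checkpoint kinase, ran from 12.4 to 63.0 CPM in vehicle and from 5.86 to 58.6 in midkine libraries (log2 fold change 0.02, SE 0.48). BUB1B (0.09, SE 0.53), AURKA (0.06, SE 0.40), AURKB (-0.04, SE 0.48) and the survivin gene BIRC5 (0.02, SE 0.51), which acts in a complex with AURKB, had log2 fold changes far below their SEs. The same held for the spindle assembly factor TPX2 (-0.13, SE 0.47), the motor KIF11 (-0.11, SE 0.44) and cyclin CCNB2 (-0.10, SE 0.51). KIF20A, a motor of cytokinesis, was highest in midkine 5 (105 CPM, log2 fold change -0.11, SE 0.40). CENPF, a kinetochore protein, was highest in midkine 6 (121 CPM, -0.14, SE 0.50). Of the S phase genes not yet described, MCM4 (-0.02, SE 0.21), MCM5 (-0.08, SE 0.34) and CDC6 (-0.10, SE 0.37) were likewise not called.

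Low counts limit 3 mitosis genes. PIMREG had 2 reads in midkine 3-2 (0.244 CPM) and 39.7 CPM in midkine 5. CDCA5, which protects sister chromatid cohesion as sororin, had 2 reads in midkine 1 and was highest in vehicle 3 at 11.3 CPM. PRR11 had 0 reads in midkine 1. With a floor of 3 reads, or 0.714 CPM there, its highest level (8.87 CPM, vehicle 3) was at least 12.4-fold higher, where the floor covers counting error only.

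**Figure D2:**
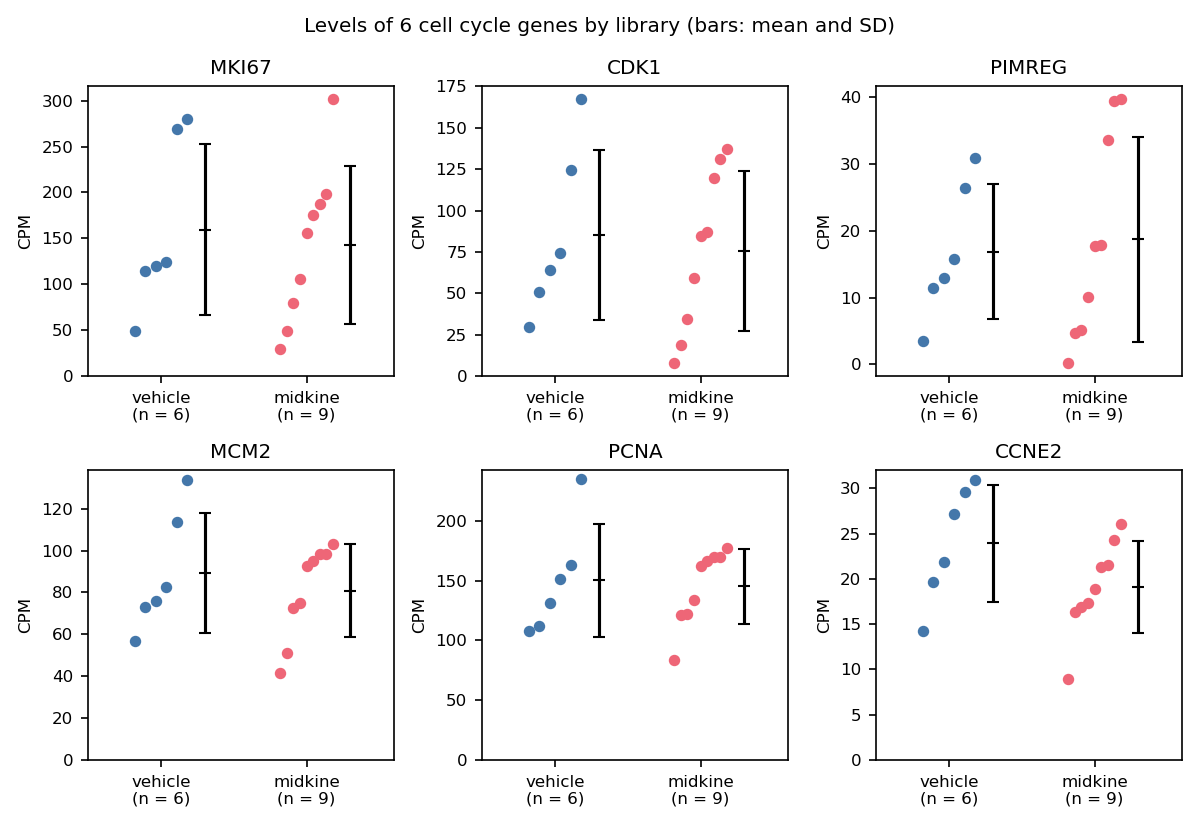
CPM of 6 cell cycle genes in each library (points, sorted within a group; blue vehicle, n = 6; red midkine, n = 9), with the mean and SD as a black bar. The groups overlap in every panel, as for MKI67 with vehicle libraries from 49.3 to 280 and midkine libraries from 29.5 to 302 CPM.

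Midkine was then compared with vehicle over all 11665 genes by edgeR's quasi-likelihood test with Benjamini-Hochberg adjustment. At an adjusted p below 0.05 the test called 0 of 37 members, and 0% of all genes, whose smallest adjusted p was 0.399. At an unadjusted p below 0.05 it gave 0 of 37 members, against 10.1% of all genes (1178), and the members' smallest unadjusted p was 0.170. DESeq2, run without the low-count filter, called 92 of 15084 genes (86 higher, 6 lower) and 0 of 37 members. With so small a share over all genes, 0 of 37 says little about the members. The groups did not overlap in CPM for 0 of 37 members, against 0.0171% of all genes (2). Members' log2 fold changes lay between -0.39 and 0.19, with SEs from 0.20 to 0.69 that include the spread between tumours, and the 95% interval of each of the 37 included 0. These intervals do not show that the groups are alike: that of MKI67 spans changes from -1.14 to 0.81 log2 units.

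The log2 fold change was positive for 11 of 37 members (29.7%), against 55.7% of all genes. The median was -0.08 for the members and 0.04 for all genes. Of the S phase genes 1 was positive (MCM3) and 12 negative, with a median of -0.10, and of the mitosis genes 10 were positive and 14 negative, with a median of -0.05. The count of positive members depended on single libraries. It was 34 without vehicle 3, 25 without vehicle 4, 24 without midkine 3-2 and 22 without midkine 1. It was 7 without vehicle 5, 5 without vehicle 2-1, 5 without vehicle 2-2, 4 without midkine 4-3, 2 without midkine 5, 1 without vehicle 6 and 0 without midkine 6. Scaling by the deposited totals alone gave 5, and this moved the median of all genes from 0.04 to -0.10. The median over members then lay at -0.17. With TMM scaling, leaving out vehicle 3 moved that median from -0.08 to 0.20.

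**Figure D3:**
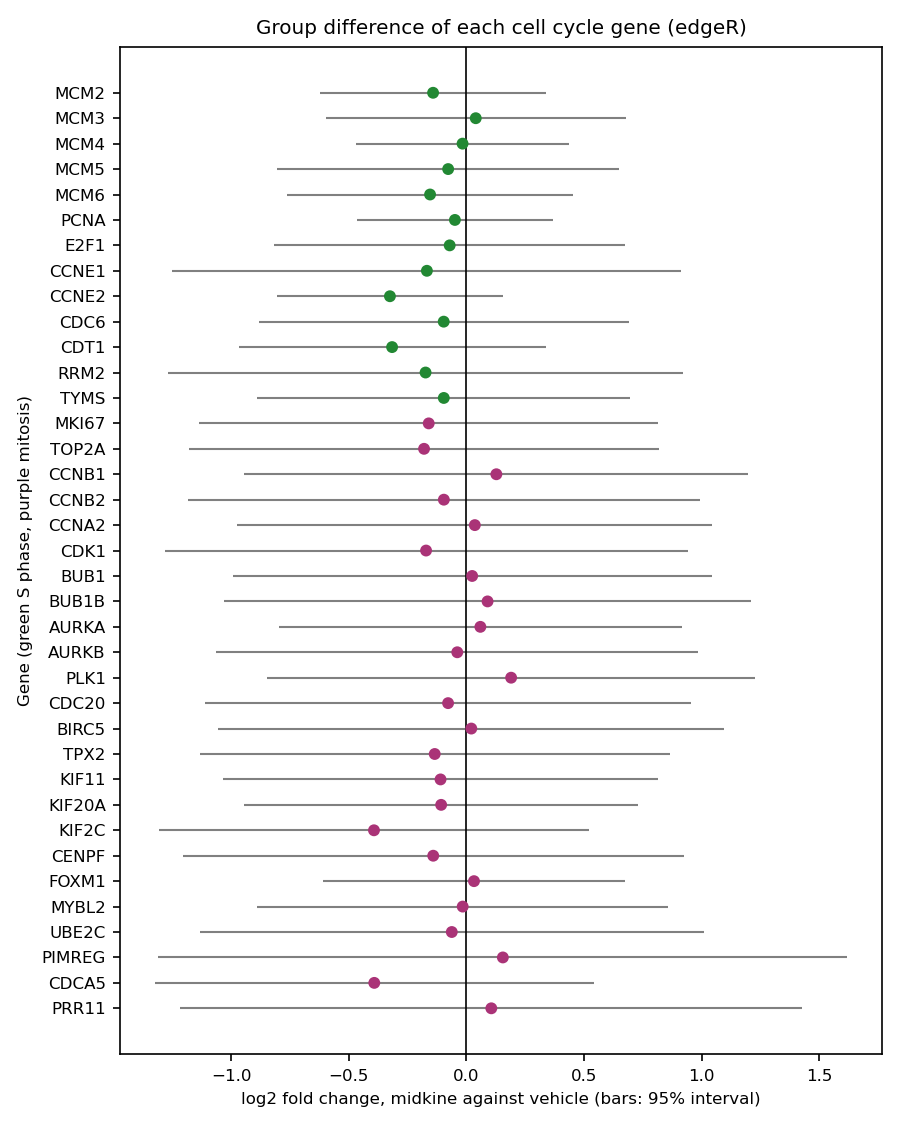
Log2 fold change of midkine against vehicle for each of 37 genes (points; green S phase, purple mitosis) with its 95% interval from edgeR (bars), over 6 vehicle and 9 midkine libraries. Each interval crosses 0, and the points lie between -0.39 (KIF2C) and 0.19 (PLK1).

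S phase and mitosis genes were set against each other within each tumour. The S phase score ran over 2.02 log2 units (4.04-fold) and the mitosis score over 3.17 (9.02-fold), both from vehicle 3 at the top to midkine 3-2 at the bottom. A library's rank differed by at most 4 places between them, in midkine 4-2, which ranked 8 by S phase and 12 by mitosis genes. Vehicle 4 ranked 2 by S phase and 5 by mitosis genes, and midkine 5 ranked 4 and 2.

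The S phase score minus the mitosis score has no meaning as a level, since the gene sets differ, but it can be compared between libraries. It was highest in midkine 3-2 (0.93), midkine 1 (0.73), midkine 4-2 (0.62) and vehicle 6 (0.60). It was lowest in midkine 5 (-0.49), midkine 6 (-0.48), midkine 4-3 (-0.27) and vehicle 3 (-0.23). The high values thus belong to libraries that ranked 11, 13, 14 and 15 by member score, and the low ones to libraries that ranked 1 to 4. The wider range of the mitosis score favours such an order by arithmetic and does not fix it. The remaining libraries lay between -0.12 (midkine 4-1) and 0.36 (vehicle 5). Among them vehicle 2-1, which ranked 12 by member score, stood at -0.07. The mean was 0.14 ± 0.31 (SD, n = 6) in vehicle and 0.16 ± 0.53 (SD, n = 9) in midkine libraries, a difference of 0.03. With the narrower lists of MCM2 to MCM6, CDC6 and E2F1 against 16 mitosis genes, it was 0.21 ± 0.31 and 0.30 ± 0.63, a difference of 0.09. Both differences are smaller than the SDs.

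**Figure D4:**
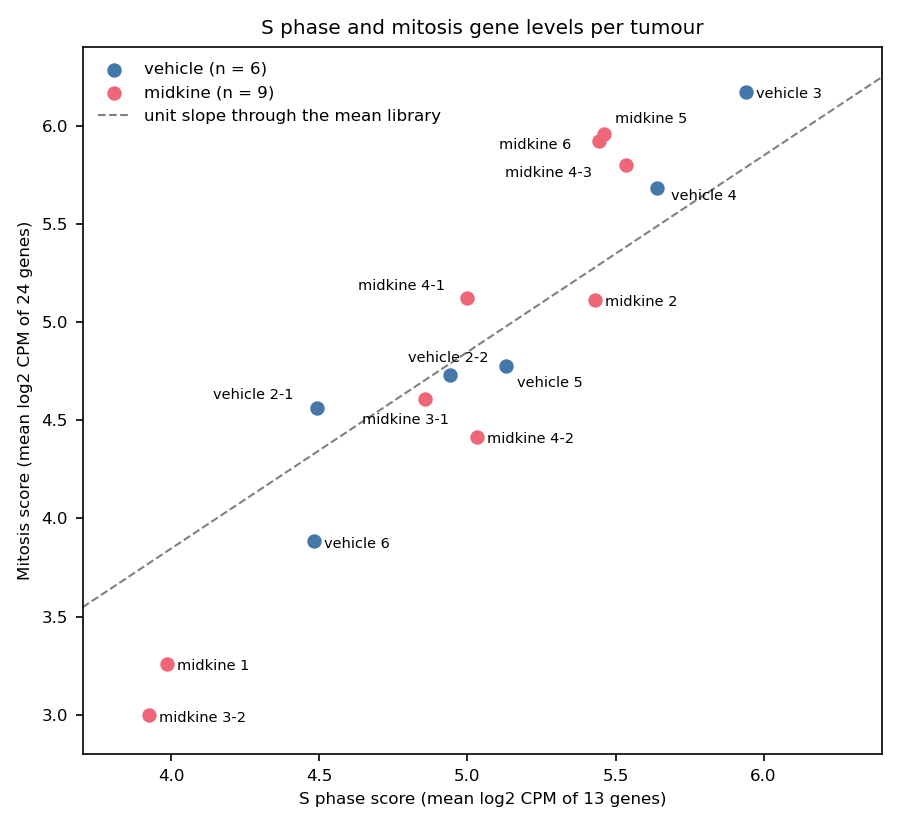
Mean log2 CPM of 13 S phase genes (x axis) and of 24 mitosis genes (y axis) in each tumour library (blue vehicle, n = 6; red midkine, n = 9), with a dashed line of unit slope through the mean library. Libraries with low scores (midkine 3-2, midkine 1, vehicle 6) lie below the line and those with high scores (vehicle 3, midkine 5, midkine 6, midkine 4-3) above it.

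Cell type markers were summed in raw CPM, scaled by the deposited totals alone. All 10 epithelial markers, led by KRT8, were detected in all 15 libraries, with sums from 6645 to 8958 in vehicle and from 1514 (midkine 1) to 13308 (midkine 4-3) in midkine libraries. Midkine 1, which had the second lowest member score, also had muscle markers at 158862, against 29.0 to 2803 in the other 14 libraries. Midkine 3-2, which had the lowest member score, had muscle markers at 29.0, T and NK cell markers at 368, and B cell and plasma cell markers at 94.3. Its epithelial sum of 12939 was uneven: CLDN4 alone was 4337, against 160 to 372 in vehicle libraries. EPCAM (1494), CDH1 (1228) and KRT8 (2162) also lay above every vehicle library, SPINT2 (548) and ESRP1 (103) below every one, and KRT18, KRT19, CLDN3 and CLDN7 within their range. Midkine 5, which ranked 2 by member score, had fibroblast markers at 116084, against 240 to 9367 in the others, and epithelial markers at 3027. Most of that fibroblast sum was COL1A1 (72947) and COL3A1 (39892). The remaining fibroblast markers were also highest there, by narrower margins. DCN was 1194, with 593 in midkine 3-2 next, and PDGFRB 205, with 138 in midkine 4-1 next. Midkine 4-2, where MCM3 was highest, had T and NK cell markers at 1216 and B cell and plasma cell markers at 555, which in vehicle libraries reached 87.3 and 3.25. The part of these cell types in the members' levels was not tested. Without midkine 1, 4-2 and 5 together the test again called 0 members, and 0 of all 11512 genes tested. Of the 37 members, 21 had a positive log2 fold change, with a median of 0.016, against 0.0125 over all genes.

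**Figure D5:**
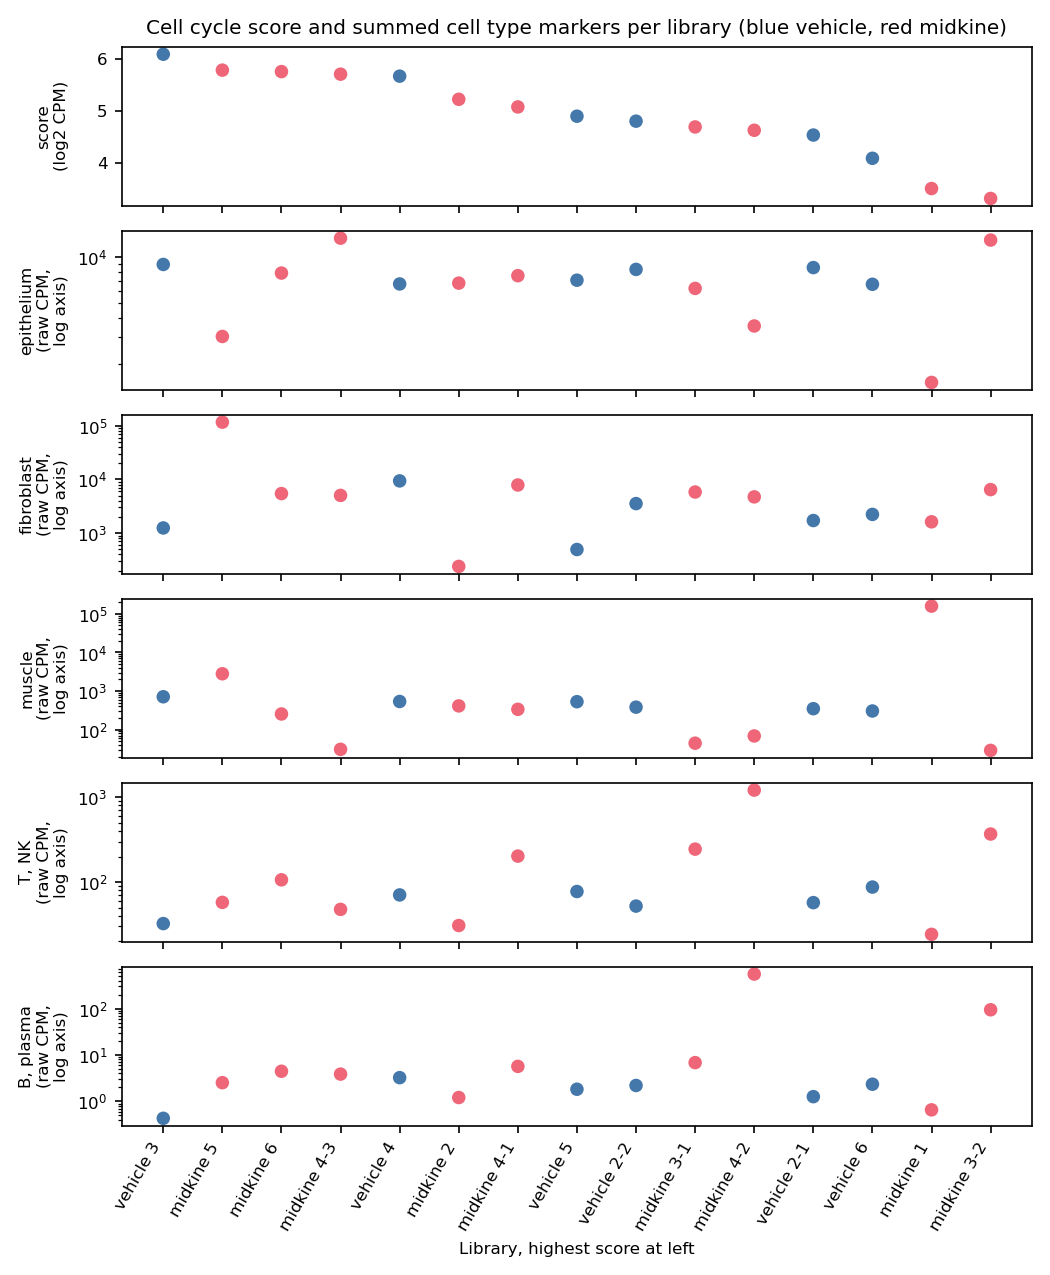
Member score (top panel, log2 CPM) and summed raw CPM of marker genes of 5 cell types (lower panels, log axes) in each library, ordered by member score (blue vehicle, red midkine). Midkine 1, low in member score, is high in muscle markers (158862) and low in epithelial markers (1514), while midkine 3-2, lower still, has an epithelial sum of 12939, of which CLDN4 is 4337.

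The muscle myosin gene MYH4 had 461 reads or more in 10 libraries and at most 1 read in the other 5 (midkine 3-1, 3-2, 4-1, 4-2 and 4-3), all 5 of them midkine. In vehicle libraries MYH4 ran from 94.9 to 167 raw CPM, against 55763 in midkine 1. Whether these reads reflect muscle in each piece of tumour was not tested. Within the 10 libraries (6 vehicle, 4 midkine), 0 members were called, and 0 of all 11611 genes tested there. Of the 37 members, 28 had a positive log2 fold change, with a median of 0.16, against a median of 0.025 over all genes.

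Other genes of the cell cycle were followed in 10 lists of 121 genes, of which 106 were tested. None was called by edgeR in either direction, with 42 higher and 64 lower in midkine libraries and 2 at an unadjusted p below 0.05, or 2 of 106 against the 10.1% of all genes. The 9 cyclins, kinases and pocket proteins of early cell cycle had 4 higher and 5 lower. CCND1, cyclin D1, which passes growth signals to CDK4 and CDK6, was among the genes of unadjusted p below 0.05. It ran from 821 to 1473 CPM in vehicle libraries (median 903) and from 308 to 999 in midkine libraries (median 591), and the groups overlapped. Its log2 fold change was -0.78 (SE 0.27, edgeR adjusted p = 0.399). CDK2 (-0.25, SE 0.15) and CCND3 (0.23, SE 0.19) had smaller ones.

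Of 7 further E2F and DP factors tested, 3 were higher and 4 lower. E2F6, a repressor of the family, stood at 213 CPM in midkine 1 and at 22.8 to 62.2 in the other midkine libraries, against 23.5 to 37.5 in vehicle libraries. Its log2 fold change was 0.73 (SE 0.47), and 0.077 without midkine 1. E2F4 (0.25, SE 0.15) and TFDP1 (-0.10, SE 0.12) also did not pass the test. Of 6 CDK inhibitors, 4 were higher and 2 lower. CDKN1C stood at 834 CPM in midkine 5 and from 10.6 to 40.6 in the other midkine libraries, against 9.85 to 79.1 in vehicle libraries. Its log2 fold change was 2.16 (SE 1.10, edgeR adjusted p = 0.538) with midkine 5 and -0.21 without it. CDKN1A, a target of p53, stood at 487 CPM in midkine 3-2 and 374 in midkine 1, the libraries with the lowest member scores, and from 28.4 to 171 in all others. The lowest value, 28.4, was in vehicle 6, which ranked 13 by member score. Over the 15 libraries the Pearson r of CDKN1A with the member score was -0.397. Its log2 fold change was 0.98 (SE 0.58, edgeR adjusted p = 0.604), and 0.56 without midkine 3-2. CDKN2A ran from 21.6 to 112 CPM in vehicle and from 5.0 to 45.9 in midkine libraries (log2 fold change -0.82, SE 0.47, and -0.44 without vehicle 5).

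Of 27 genes of the replication machinery, 4 were higher and 23 lower, with a median log2 fold change of -0.18. Their mean log2 CPM ran with the member score (Pearson r = 0.989), highest in vehicle 3 and lowest in midkine 3-2. The 27 are thus not independent of each other, and their count was not repeated with libraries left out. MCM7, the helicase subunit that is not among the members, ran from 138 to 243 CPM in vehicle libraries (median 174) and from 104 to 183 in midkine libraries (median 137), with a log2 fold change of -0.30 (SE 0.15, edgeR adjusted p = 0.528). CDC45 (-0.50, SE 0.36) and CDC7 (-0.31, SE 0.24) did not pass the test. Of 6 genes of nucleotide synthesis, 1 was higher and 5 lower. CTPS1, which makes CTP, was the other gene of unadjusted p below 0.05, at 93.7 to 379 CPM in vehicle and 87.3 to 204 in midkine libraries (log2 fold change -0.67, SE 0.29, edgeR adjusted p = 0.451, and -0.37 without vehicle 6). DTYMK stood at -0.14 (SE 0.23) and DUT at -0.18 (SE 0.30).

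The mitotic lists were divided. The 13 kinetochore and checkpoint genes had 8 higher and 5 lower (median 0.02), the 15 spindle and cytokinesis genes 7 and 8 (median -0.01), the 4 condensin and separase genes 3 and 1 (median 0.04), and the 15 mitotic kinases and regulators 6 and 9 (median -0.02). The 4 subunits of MuvB and its partners had 2 and 2 (median -0.01). Named by smallest p, the genes with negative log2 fold changes were WEE1 (-0.44, SE 0.28), SKA1 (-0.30, SE 0.54), ASPM (-0.22, SE 0.41), RACGAP1 (-0.22, SE 0.52), CDC25A (-0.22, SE 0.15), RBBP4 (-0.16, SE 0.13), SKA3 (-0.13, SE 0.19) and ESPL1 (-0.12, SE 0.38). Those with positive ones were CDC25B (0.38, SE 0.33), LIN54 (0.31, SE 0.20), ZWINT (0.24, SE 0.22), DLGAP5 (0.15, SE 0.45), SMC4 (0.13, SE 0.30), SMC2 (0.06, SE 0.33) and LIN37 (0.02, SE 0.13). Their edgeR adjusted p ran from 0.634 (WEE1) to 0.982 (LIN37).

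Outside the members, the 10 genes whose log2 CPM followed the member score most closely over the 15 libraries are given with their Pearson r. These were KIF22 (0.991), NUF2 (0.989), CDCA8 (0.987), CKAP2 (0.984), SPAG5 (0.984), SPC25 (0.983), ASPM (0.982), TTK (0.982), TK1 (0.978) and NUSAP1 (0.977). They were picked as the closest of all genes, and libraries share depth and scaling, so the values are a description. Their levels spread as widely as the members': KIF22 ran from 9.65 to 105 CPM and TK1, thymidine kinase, from 9.89 to 152 CPM. The 5 genes that ran most opposite were FBXL5 (-0.907), NGRN (-0.906), RANBP10 (-0.893), VPS37C (-0.893) and ANXA11 (-0.893), with narrower ranges, such as 47.0 to 107 CPM for FBXL5.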

How the data were processed

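The authors deposited 1 table of raw read counts per gene symbol for 15 libraries made from poly(A)-selected RNA and sequenced as read pairs of 150 bases, per the labels' protocols. The submitters' processing notes name the build rn6. The deposited table is named for the aligner STAR, and its version, the annotation and the strand setting are not given in the sources used. Reads of gene copies or overlapping genes may therefore be shared. Groups follow the treatment in the titles.

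From these counts, R 4.3.3 with edgeR 4.0.16 kept 11665 genes (filterByExpr by group), scaled libraries by TMM and ran the quasi-likelihood F test of midkine against vehicle with Benjamini-Hochberg adjustment at 0.05 over all genes kept. SEs come from the log2 fold change and its F statistic. Scores are means of log2 CPM with a prior count of 2 and carry no test. In simulated counts the test recovered 28.5%, 82.0% and 93.0% of genes changed 2, 4 and 8-fold, out of 200 each. False calls numbered 6, 8 and 7. The changed genes were drawn from all genes kept, whose median SE was 0.27, against 0.20 to 0.69 for the members. These shares therefore do not carry over to the members. Every pair of libraries in a group differed by more than counting noise (chi-square over its degrees of freedom 19.9 or higher).

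The rule for naming took all members, the 3 genes of smallest p per further list, the 10 genes most and 5 least like the member score, MYH4 and leading markers. Members and lists were chosen with earlier results of these data known. Alternatives were 3 other scalings, no low-count filter, DESeq2 1.42.0, limma-voom (limma 3.58.1), a prior count of 0.5, title numbers as a block or summed, subsets of libraries, and each library left out. Promoters come from RefSeq's GRCr8 table, and coordinates of that assembly were not joined to the counts.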

Additional observations from a re-analysis of the deposited data

Results flagged for a closer look

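A check for outliers took 142 groups, each the values of a single gene or score in a single treatment group. In 15, a library's gap to the next exceeded Dixon's 95% critical value for a group of that size. Chance flags about 1 in 20 where values are normally distributed, which was not checked for these CPM. Among the members, RRM2 stood at 90.8 CPM in vehicle 3, with the next vehicle library at 34.8, and CDCA5 at 11.3 CPM in vehicle 3, with the next at 5.04. WEE1 was also far above the rest in vehicle 3, at 132 CPM. Vehicle 5 stood apart in CCND1 (1473 CPM) and vehicle 4 in CDKN1C (79.1 CPM).

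In the midkine group, midkine 3-2 stood apart in E2F4 (117 CPM), ZWINT (214 CPM), LIN54 (33.0 CPM) and LIN37 (43.7 CPM), each high, and in DTYMK (20.4 CPM), which was low. Midkine 1 stood apart in E2F6 (213 CPM) and CTPS1 (204 CPM), midkine 5 in CDKN1C (834 CPM) and SMC2 (190 CPM), and midkine 4-2 in CCND3 (157 CPM).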

How the results depend on the processing

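Under every alternative run, 0 members were called, and the smallest adjusted p of a member was 0.555. DESeq2 called 92 of 15084 genes, and edgeR and limma-voom called 0 of 11665. Of 37 members, 35 changed the sign of their log2 fold change in at least 1 alternative, and CCNE2 and KIF2C did not. The 11 members with a positive value became 5 with the deposited totals alone, 28 within the libraries with MYH4 reads, 21 without midkine 1, 4-2 and 5 together, and 0 to 34 with each library left out. Leaving out each library moved the median over members from -0.22 to 0.20 and the difference in member score from -0.34 to 0.054. The cause was not tested, except that leaving out a library removes its values. At this number of tumours, members' SEs of 0.20 to 0.69 limit what can be detected.

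With the title number as a replicate block, 0 genes were called and 323 had an unadjusted p below 0.05, and the values that changed sign were MCM4 0.0027, PCNA 0.015, E2F1 0.011, BUB1 -0.018, AURKB 0.0085, MYBL2 0.067, PIMREG -0.0057, LIN37 -0.0022. The 9 same-numbered pairs of a vehicle and a midkine library had correlations of their deviations from -0.44 to 0.19, 2 of them over 0.1. Pairs of different numbers were not set beside them, so these values cannot decide whether the numbers pair the libraries.

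Log2 fold changes that changed sign are given next. With RLE size factors they were MCM4 0.00068. With upper-quartile factors they were LIN37 -0.016. With the deposited totals alone they were MCM3 -0.038, CCNA2 -0.045, BUB1 -0.052, AURKA -0.017, BIRC5 -0.053, FOXM1 -0.082, SMC2 -0.053, LIN37 -0.12. With DESeq2 they were CDKN1C -0.22. With limma-voom they were MCM4 0.041, BUB1 -0.048, AURKA -0.033, BIRC5 -0.081, FOXM1 -0.040, MYBL2 0.095, PIMREG -0.47. With limma-voom and title number as a random block they were MCM4 0.041, BUB1 -0.049, AURKA -0.033, BIRC5 -0.081, FOXM1 -0.039, MYBL2 0.095, PIMREG -0.47. With counts summed by title number they were MCM3 -0.079, BUB1 -0.048, PRR11 -0.0087, LIN37 -0.0013. Within the 10 libraries with MYH4 reads they were MCM3 -0.024, MCM4 0.071, MCM5 0.055, E2F1 0.20, CDC6 0.11, CDT1 0.020, TYMS 0.14, MKI67 0.14, TOP2A 0.15, CCNB2 0.26, CDK1 0.14, AURKB 0.17, CDC20 0.18, TPX2 0.22, KIF11 0.23, KIF20A 0.16, CENPF 0.24, MYBL2 0.15, UBE2C 0.26, DUT 0.12, SKA3 0.085, SKA1 0.060, RACGAP1 0.056, ESPL1 0.13, LIN37 -0.092. Without midkine 1, 4-2 and 5 together (chosen after seeing the data) they were MCM4 0.0098, MCM5 0.027, PCNA 0.071, CCNE1 0.018, CDC6 0.069, CCNB2 0.016, AURKB 0.095, CDC20 0.089, MYBL2 0.098, UBE2C 0.094, CDKN1C -0.19, SMC2 -0.012. With each library left out, the lowest to highest were MCM2 -0.24 to 0.0090, MCM3 -0.10 to 0.20, MCM4 -0.12 to 0.13, MCM5 -0.19 to 0.12, MCM6 -0.27 to 0.062, PCNA -0.13 to 0.12, E2F1 -0.25 to 0.064, CCNE1 -0.37 to 0.12, CDC6 -0.24 to 0.060, RRM2 -0.36 to 0.46, TYMS -0.24 to 0.14, MKI67 -0.38 to 0.076, TOP2A -0.41 to 0.20, CCNB1 -0.050 to 0.53, CCNB2 -0.30 to 0.26, CCNA2 -0.15 to 0.50, CDK1 -0.35 to 0.14, BUB1 -0.14 to 0.38, BUB1B -0.084 to 0.62, AURKA -0.076 to 0.36, AURKB -0.21 to 0.37, PLK1 -0.0076 to 0.54, CDC20 -0.25 to 0.20, BIRC5 -0.17 to 0.39, TPX2 -0.33 to 0.27, KIF11 -0.31 to 0.24, KIF20A -0.25 to 0.037, CENPF -0.33 to 0.062, FOXM1 -0.16 to 0.16, MYBL2 -0.18 to 0.27, UBE2C -0.26 to 0.20, PIMREG -0.061 to 0.42, CDCA5 -0.53 to 0.044, PRR11 -0.094 to 0.63, TFDP1 -0.15 to 0.0058, CDKN1C -0.21 to 2.99, RACGAP1 -0.40 to 0.25, DLGAP5 -0.11 to 0.40, SMC4 -0.020 to 0.26, ESPL1 -0.29 to 0.013, SMC2 -0.15 to 0.21, LIN37 -0.055 to 0.074.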
